A study of Mus musculus with 18 samples.

Results

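The genes described here are 10 listed members of the matrix metalloproteinase system in mouse liver, 8 proteases (Mmp2, Mmp7, Mmp8, Mmp9, Mmp12, Mmp13, Mmp14 and Mmp19) and 2 of their tissue inhibitors (Timp1 and Timp2). They were found by matching the Ensembl identifiers of the count files to gene symbols, and all 10 had a row among the 55536 genes of the files. Of the 10, 8 had counts and passed the filter on low counts, among 14835 genes tested, while Mmp19 and Timp1 had 0 counts in every library. The study asked how chronic exposure to TCDD, a dioxin that activates the aryl hydrocarbon receptor (AHR), changes the liver when AHR is lost from hepatocytes or from hepatic stellate cells. Livers of 18 female C57BL/6 mice were sequenced as poly-T selected mRNA, with 3 mice in each of 6 groups. Mice of every genotype received either peanut oil or TCDD at 100 µg/kg by gavage, with a dose each 4 days up to day 92. The genotypes are called WT (labelled WT, and given in the design text as AhR fl/fl, so a floxed but undeleted Ahr), dHep (AhRΔHep, AHR deleted in hepatocytes) and dHSC (AhRΔHSC, AHR deleted in hepatic stellate cells). The labels do not name the Cre driver of either deletion or the age of the mice.

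Matrix metalloproteinases are zinc-dependent endopeptidases that are made as inactive proenzymes and cut collagens, elastin, other matrix proteins and many signalling proteins. Most are secreted, some such as MMP14 sit in the plasma membrane, and TIMPs block their active site. In injured liver they come from several cell types, among them neutrophils (MMP8 and MMP9), macrophages (MMP12 and MMP13), stellate cells (MMP2 and TIMPs) and bile duct epithelium (MMP7). These data measure mRNA of whole liver, not protein or protease activity.

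The 4 members on chromosome 9 that rose most with TCDD lie in 1 cluster of metalloproteinase genes, so the bases just upstream of their start sites are shown first. They are the 250 bases before a RefSeq start in the build GRCm38.p6, written 5′ to 3′, and capitals mark the letters TGANTCA, the site of the transcription factor AP-1. Mmp12 has a start at the 5′ end of its longer transcript and an inner start inside an intron of that transcript, and both windows are given.
Mmp13, chr9:7272264-7272513, plus strand: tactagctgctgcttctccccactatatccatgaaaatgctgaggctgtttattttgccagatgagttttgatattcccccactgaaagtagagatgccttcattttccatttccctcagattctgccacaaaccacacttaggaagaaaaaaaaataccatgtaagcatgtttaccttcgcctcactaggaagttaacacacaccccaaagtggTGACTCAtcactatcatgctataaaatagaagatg
Mmp12 outer start, chr9:7344147-7344396, plus strand: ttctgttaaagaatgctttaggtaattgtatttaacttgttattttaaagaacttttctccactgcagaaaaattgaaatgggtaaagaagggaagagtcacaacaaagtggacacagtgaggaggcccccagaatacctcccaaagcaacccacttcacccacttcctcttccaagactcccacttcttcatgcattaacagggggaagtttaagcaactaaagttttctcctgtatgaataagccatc
Mmp12 inner start, chr9:7347124-7347373, plus strand: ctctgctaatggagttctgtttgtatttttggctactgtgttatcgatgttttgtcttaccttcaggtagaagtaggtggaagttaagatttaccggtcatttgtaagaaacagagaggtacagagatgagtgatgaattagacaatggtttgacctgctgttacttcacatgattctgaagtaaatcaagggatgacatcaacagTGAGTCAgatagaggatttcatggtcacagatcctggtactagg
Mmp8, chr9:7558179-7558428, plus strand: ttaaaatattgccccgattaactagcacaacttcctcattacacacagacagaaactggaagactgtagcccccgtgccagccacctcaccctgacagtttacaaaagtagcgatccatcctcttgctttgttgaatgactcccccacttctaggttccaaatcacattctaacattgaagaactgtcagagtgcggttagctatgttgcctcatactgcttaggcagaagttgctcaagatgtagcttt
Mmp7, chr9:7691840-7692089, plus strand: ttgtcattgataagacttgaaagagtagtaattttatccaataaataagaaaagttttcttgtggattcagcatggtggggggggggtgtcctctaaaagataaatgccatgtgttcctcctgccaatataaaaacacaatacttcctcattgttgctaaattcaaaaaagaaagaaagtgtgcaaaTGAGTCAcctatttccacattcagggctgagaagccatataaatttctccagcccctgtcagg
The AP-1 letters stood in 3 of these 5 windows, beginning at base -35 of Mmp13, base -63 of Mmp7 and base -44 of the inner start of Mmp12, counted from the base before the start as -1. Over all 32851 RefSeq windows of the same length, 6.75% held TGANTCA on either strand. The AHR core letters GCGTG, searched on both strands, stood in 0 of the 5 windows and in 28.2% of all windows. Mmp7 has another RefSeq start just downstream, whose window (chr9:7692091-7692340) lies past the start shown and is not printed. It held GCGTG at base -14 and no TGANTCA, so GCGTG stood in 1 of the 6 windows of these 4 genes. Such matches describe letters in a window and say nothing of binding. The RefSeq table held windows for 7 of the 10 members. Outside the cluster, GCGTG stood at base -206 of Timp1 and base -113 of Timp2 and was absent from the window of Mmp14. TGANTCA was absent from the windows of Timp1, Timp2 and Mmp14. Mmp2, Mmp9 and Mmp19 were not matched.

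Deposited counts summed to 12706490 to 27240877 per library. Ahr itself, the gene targeted in both deletions, lay between 23.2 and 94.9 CPM (counts scaled to library size, with TMM scaling) over the 18 libraries and was called in 0 of 9 comparisons by edgeR's quasi-likelihood test. It was at an unadjusted p under 0.05 in none of them either. A count over the whole gene does not separate a deleted exon from the rest, so it checks no label. Cyp1a1, the classic AHR target, was at 5090 to 8328 CPM in WT with TCDD, 283 to 334 CPM in dHep with TCDD and 2449 to 5576 CPM in dHSC with TCDD, against 3.24 to 86.9 CPM over all vehicle livers. The 8 hepatocyte markers had counts in every group. Of the 18 libraries, 5 stood apart in that 2.20 to 4.25% of their counts lay outside protein-coding genes, against at most 1.76% in the others. Mitochondrial counts made up 8.70 to 28.4% of these 5 libraries, the highest being dHSC TCDD mouse 18, and 4.52 to 9.29% of the other 13. The 5 are vehicle mice 9 and 15 and TCDD mouse 16 of dHep, and vehicle mouse 17 and TCDD mouse 18 of dHSC. WT vehicle mouse 1 carried 1635 CPM of skeletal muscle markers, and the other 17 libraries held at most 3.87 CPM. Results that rest on these libraries are given with and without them where such fits were made. For most markers, and for Timp2 between vehicle groups, no such fit is given here. Values of single livers are listed in the order of their mouse numbers.

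Timp1 and Mmp19 could not be measured in these files. Timp1, the inhibitor most often followed in fibrotic liver (ENSMUSG00000001131, chromosome X, 20870166 to 20874735), lies entirely within the span of Syn1 on the other strand, and Mmp19 (ENSMUSG00000025355, chromosome 10, 128790910 to 128800824) lies entirely within that of Gm47093. All 683 protein-coding genes that are nested in another gene's span, with exons clear of every other exon, had 0 counts in all 18 libraries. Mmp19 is not in that set, since 28.3% of its exon bases lie under exons of other genes, and it overlaps Tmem198b as well. Of 11798 coding genes clear of all other genes, 25.3% had 0 counts in all libraries. Timp3 and Timp4, nested in Syn3 and Syn2, were also at 0 throughout. Each of these 4 genes has 100% of its exon bases under the spans of other genes. Their 0 is therefore taken as no measure of their expression, and Timp2 is the only TIMP with values here. Of the measured members, Mmp7 has 49.5% of its exon bases under the span of the antisense gene AV064505 and Mmp12 4.63% under Mmp1b, and their counts may miss reads there.

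In WT liver the mRNA of 5 metalloproteinases rose with TCDD, Mmp13, Mmp12, Mmp8, Mmp7 and Mmp9, while Mmp2, Mmp14 and Timp2 were not called. The 5 went from at most 1.26 CPM in any vehicle liver to between 2.05 and 27.3 CPM in the TCDD livers. All 3 TCDD livers lay above all 3 vehicle livers for each of the 5. How many of all genes separate in this way was not counted. The values are levels in whole liver, in which more cells of a type and more RNA per cell cannot be told apart. In this comparison 5.38% of all 14835 genes were called in either direction at an adjusted p under 0.05, against 5 of the 8 tested members, all higher. The median log2 change of the 8 members was 4.002, beside -0.02 over all genes tested. Genes near 0 with vehicle pass the filter on low counts only through a group where they are high. The share and the median therefore describe the 8 tested members and are no test of them. They say nothing about the 2 members without counts.

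**Figure D1:**
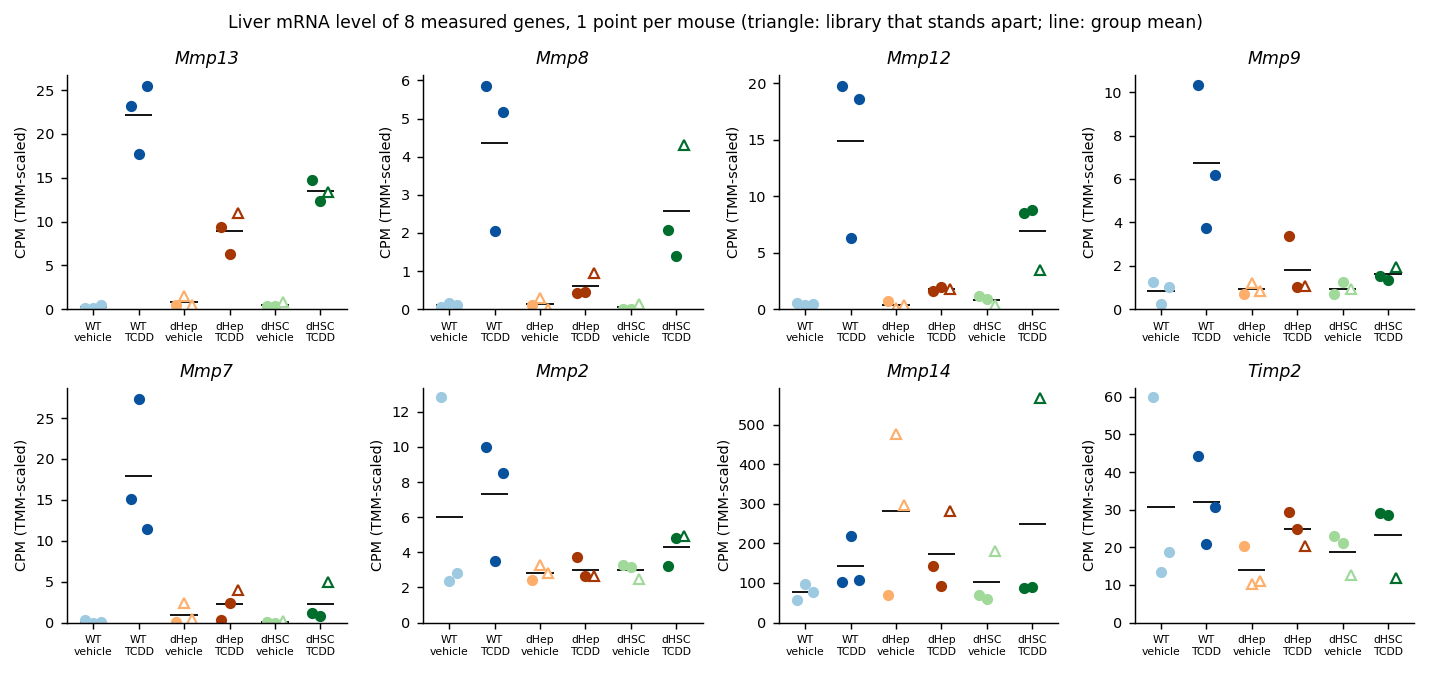
CPM of the 8 measured genes in each of 18 livers, on a linear axis from 0, by genotype and treatment; each point is 1 mouse, lines are group means of 3, and triangles are the 5 libraries that stand apart. Mmp13, Mmp8, Mmp12, Mmp9 and Mmp7 are near 0 in vehicle livers and highest in WT with TCDD, while Mmp14 is highest in triangles.

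Mmp13, the main interstitial collagenase of rodents (ENSMUSG00000050578, chromosome 9, 7272514 to 7283331), was at 0.172, 0.168 and 0.459 CPM in the WT vehicle livers and at 23.2, 17.7 and 25.5 CPM in the WT TCDD livers. It rose by 6.34 ± 0.56 on the log2 scale (SE; edgeR quasi-likelihood test, Benjamini-Hochberg adjusted p = 8.42e-06), the change with the lowest p among the members. The dHep livers held 0.524, 1.49 and 0.453 CPM with vehicle and 9.39, 6.34 and 11.02 CPM with TCDD. The dHSC livers held 0.362, 0.368 and 0.844 CPM with vehicle and 14.8, 12.4 and 13.3 CPM with TCDD. The groups of each genotype did not overlap, and the TCDD livers were lowest in dHep and highest in WT.

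Mmp12, macrophage elastase (ENSMUSG00000049723, chromosome 9, 7344381 to 7369499), was at 0.573, 0.336 and 0.459 CPM in WT with vehicle and at 19.8, 6.26 and 18.6 CPM in WT with TCDD, a rise of 5.01 ± 0.65 (edgeR adjusted p = 0.000250). The dHep livers held 0.749, 0.119 and 0.377 CPM with vehicle and 1.64, 2.01 and 1.77 CPM with TCDD. The dHSC livers held 1.13, 0.884 and 0.352 CPM with vehicle and 8.56, 8.75 and 3.44 CPM with TCDD. All dHep TCDD livers lay below every WT TCDD liver, whereas dHSC and WT TCDD livers overlapped.

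Mmp8, the collagenase of neutrophil granules (ENSMUSG00000005800, chromosome 9, 7558456 to 7568485), was at 0.0573, 0.168 and 0.115 CPM in WT with vehicle, which are 6 counts over the 3 libraries. With TCDD it was at 5.86, 2.05 and 5.17 CPM, a rise of 5.18 ± 0.92 (edgeR adjusted p = 0.00309). In dHep it was at 0.112, 0.297 and 0 CPM with vehicle and at 0.433, 0.439 and 0.953 CPM with TCDD. No dHep liver reached 1 CPM. The dHSC livers were at 0, 0 and 0.141 CPM with vehicle and at 2.07, 1.38 and 4.30 CPM with TCDD.

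Mmp9, gelatinase B, which cuts denatured collagen and type IV collagen (ENSMUSG00000017737, chromosome 2, 164940780 to 164955850), was at 1.26, 0.224 and 1.03 CPM in WT with vehicle and at 10.3, 3.76 and 6.16 CPM in WT with TCDD. It rose by 3.00 ± 0.62 (edgeR adjusted p = 0.00862). Mmp9 in dHep was at 0.712, 1.19 and 0.830 CPM with vehicle and at 3.38, 1.004 and 1.09 CPM with TCDD, so the groups overlapped. Mmp9 in dHSC was at 0.679, 1.25 and 0.914 CPM with vehicle and at 1.55, 1.33 and 1.93 CPM with TCDD, close together but without overlap.

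Mmp7, matrilysin, a small protease known from injured epithelium (ENSMUSG00000018623, chromosome 9, 7692090 to 7699585), was at 0.287, 0 and 0.0574 CPM in WT with vehicle and at 15.1, 27.3 and 11.5 CPM in WT with TCDD. It had the highest fitted change of the members, 7.21 ± 1.37 (edgeR adjusted p = 0.00512), on 6 vehicle counts. Mmp7 in dHep was at 0.0749, 2.38 and 0.453 CPM with vehicle and at 0.260, 2.39 and 4.01 CPM with TCDD, and the groups overlapped. Mmp7 in dHSC was at 0.0453, 0 and 0.141 CPM with vehicle and at 1.18, 0.840 and 4.94 CPM with TCDD. Every dHep and dHSC liver with TCDD lay below every WT liver with TCDD.

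The 5 calls in WT held when any 1 of the 6 WT libraries was left out. Over those fits the change lay between 6.10 and 6.96 for Mmp13, 4.75 and 5.37 for Mmp12, 4.88 and 5.55 for Mmp8, 2.55 and 3.41 for Mmp9, and 6.65 and 8.98 for Mmp7. The value of 8.98 for Mmp7 came without WT vehicle mouse 1, which held 5 of its 6 vehicle counts. Without TCDD mouse 2, Mmp9 was at an adjusted p of 0.0477.

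The 3 members that were not called in WT had the highest vehicle levels per kilobase of exon, as given further on. Mmp14, the membrane protease that activates proMMP2 (ENSMUSG00000000957, chromosome 14, 54431612 to 54445364), was at 56.1, 97.4 and 76.0 CPM with vehicle and at 102, 218 and 109 CPM with TCDD, with a log2 difference of 0.90 ± 0.75 (edgeR adjusted p = 0.688). Its groups did not overlap, but the nearest livers were 97.4 and 102 CPM. Timp2 (ENSMUSG00000017466, chromosome 11, 118301069 to 118355740) was at 59.9, 13.5 and 18.8 CPM with vehicle and at 44.1, 20.8 and 30.8 CPM with TCDD, a difference of 0.06 ± 0.50 (edgeR adjusted p = 0.986).

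Mmp2, gelatinase A (ENSMUSG00000031740, chromosome 8, 92827291 to 92853420), was at 12.8, 2.35 and 2.81 CPM in WT with vehicle and at 9.98, 3.53 and 8.52 CPM with TCDD, a difference of 0.29 ± 0.53 (edgeR adjusted p = 0.915). WT vehicle mouse 1, the library with skeletal muscle markers, had the highest Mmp2 and the highest Timp2 of all 18 livers. Without it the Mmp2 difference was 1.503 (edgeR adjusted p = 0.0480, called) and that of Timp2 was 0.98 (edgeR adjusted p = 0.264, not called). The Mmp2 value in WT thus rests on that library, and the part of muscle RNA in it was not tested.

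**Figure D2:**
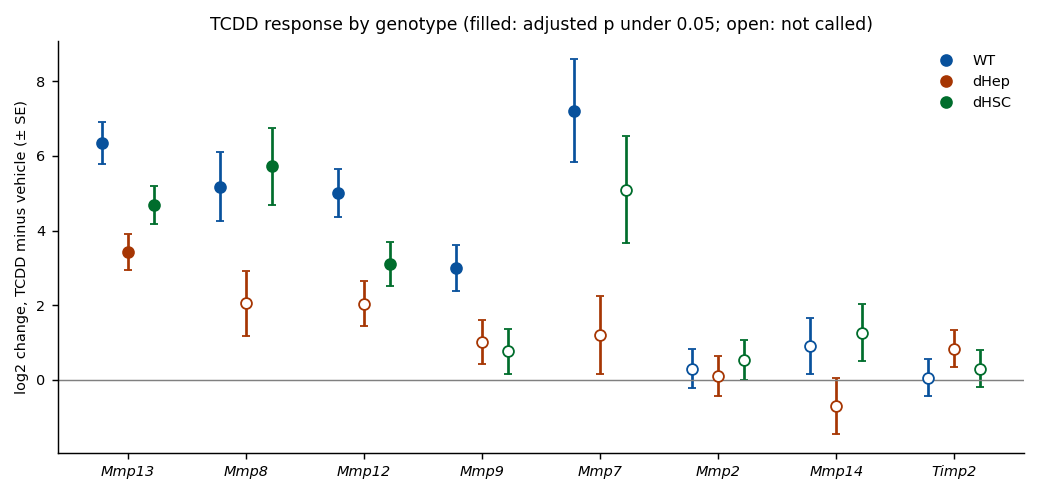
Log2 change with TCDD against vehicle (vertical axis, ± SE from the edgeR fit) for each measured gene in WT, dHep and dHSC; filled points are called at an adjusted p under 0.05. For all 5 genes called in WT the dHep and, except for Mmp8, the dHSC point lies below the WT point, and Mmp2, Mmp14 and Timp2 are open in every genotype.

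In mice without AHR in hepatocytes, Mmp13 was the only member called with TCDD. It rose by 3.43 ± 0.48 (edgeR adjusted p = 0.00943), in a comparison where 0.0674% of all genes, 10 of 14835, were called. The others had log2 differences of 2.04 ± 0.61 for Mmp12 (edgeR adjusted p = 0.432), 2.05 ± 0.88 for Mmp8, 1.195 ± 1.05 for Mmp7 and 1.02 ± 0.60 for Mmp9. The member median was 1.11, beside -0.01 over all genes. Mmp13, Mmp12 and Mmp8 were at an unadjusted p under 0.05, 3 of 8, beside 994 of all 14835 genes. The Mmp13 call was lost without vehicle mouse 3 (adjusted p = 0.0515), vehicle mouse 15 (0.0831), TCDD mouse 4 (0.135) or TCDD mouse 16 (0.0763), while its log2 change stayed between 3.17 and 4.16. Without the 5 libraries that stand apart it was 3.90 (edgeR adjusted p = 0.182), with 1 vehicle liver left in dHep that was assumed to vary like the others.

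In mice without AHR in stellate cells, 3 members rose with TCDD, Mmp13 by 4.69 ± 0.51 (edgeR adjusted p = 8.41e-05), Mmp8 by 5.73 ± 1.03 (0.00563) and Mmp12 by 3.10 ± 0.60 (0.00888). Over all genes 2.55% were called in this comparison, and the member median was 2.18 beside 0.00 over all genes. Mmp8 rests on 2 vehicle counts against 116 with TCDD, a ratio of 60.6 with a counting interval of 16.4 to 506 (exact, 95%, counting error only). Both vehicle counts came from mouse 17, and without it the fitted change was 8.54 against 0 counts, which is no bound. Mmp12 lost its call without vehicle mouse 11 (3.17, edgeR adjusted p = 0.0536). Fitted with only the 2 compared groups, Mmp8 (edgeR adjusted p = 0.0907) and Mmp12 (0.0856) were not called, which left Mmp13.

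Mmp7 in dHSC, at 102 counts with TCDD against 3 with vehicle (ratio 35.5, interval 11.8 to 175), had a log2 difference of 5.10 ± 1.43 and did not pass (edgeR adjusted p = 0.0804). DESeq2 called it (adjusted p = 0.00353). Of its 102 counts with TCDD, 69 came from mouse 18, 1 of the libraries that stand apart and the one with 28.4% mitochondrial counts, whose part in the result was not tested, and without that mouse the difference was 3.90. Mmp9 was at 0.76 ± 0.60 (edgeR adjusted p = 0.750) and Mmp2 at 0.54 ± 0.54, neither called.

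The fitted response to TCDD was lower in dHep than in WT for all 5 genes called in WT, and edgeR called the difference for 0 of the 8 members, with 0.856% of all genes called. Mmp13 differed by -2.91 ± 0.68 (edgeR adjusted p = 0.0610), Mmp12 by -2.97 ± 0.85 (0.176), Mmp7 by -6.02 ± 1.67 (0.152), Mmp8 by -3.13 ± 1.28 (0.488) and Mmp9 by -1.98 ± 0.84 (0.513). All 5 were at an unadjusted p under 0.05, beside 1251 of all 14835 genes. DESeq2 called 3 of the 5 members, Mmp13 (adjusted p = 0.00273), Mmp7 (0.0100) and Mmp12 (0.0332). The share of 0.856% is that of edgeR, and the share of all genes called by DESeq2 is not given here. Without dHep vehicle mouse 3, edgeR called Mmp13 too (-3.16, adjusted p = 0.0456). These differences share the WT mice with the comparison above.

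The difference of the response between dHSC and WT was called for 0 of 8 members, with 0.00% of all genes called, and DESeq2 called 0 members as well. At an unadjusted p under 0.05 there were 3 members, beside 233 of all 14835 genes. The 3 were Mmp9 at -2.23 ± 0.85, Mmp12 at -1.91 ± 0.82 and Mmp13 at -1.66 ± 0.69, each lower in dHSC. Mmp8 was at 0.55 ± 1.21 and Mmp7 at -2.12 ± 2.34. Standard errors of this size leave wide intervals for the genes with few vehicle counts, so a like response in both genotypes is not shown.

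Among TCDD livers, dHep had less Mmp12 than WT, at 1.81 ± 0.185 against 14.9 ± 7.48 CPM (SD, n = 3 each). It was the only member called, lower by a log2 difference of -3.04 ± 0.58 (edgeR adjusted p = 0.00871), in a comparison where 1.94% of all genes were called. Mmp13, Mmp8, Mmp9 and Mmp7 were not called, with differences of -1.31 ± 0.43, -2.84 ± 0.78, -1.87 ± 0.59 and -3.03 ± 1.06. These 4 also lay lower in every dHep than in every WT liver, and how many of all genes do so was not counted. The Mmp12 call was lost without dHep TCDD mouse 4 (edgeR adjusted p = 0.0619) or mouse 16 (0.0512). DESeq2 called 4 members here, Mmp12, Mmp13, Mmp8 and Mmp9. The share of 1.94% is that of edgeR and does not stand beside this count. Between dHSC and WT with TCDD, 0 of 8 members were called, with 0.00% of all genes called, and DESeq2 called 0 members. At an unadjusted p under 0.05 there were 2 members, Mmp9 at -2.07 ± 0.59 and Mmp7 at -2.96 ± 1.05, beside 539 of all 14835 genes.

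With vehicle, 0 of 8 members were called between dHep and WT and 0 of 8 between dHSC and WT, with 0.00% of all genes called in both comparisons. DESeq2 called 0 in both. Between dHep and WT, 4 members were at an unadjusted p under 0.05, beside 1025 of all 14835 genes. The 4 were Mmp13 at 1.60 ± 0.53, Mmp7 at 2.99 ± 1.31, Mmp14 at 1.88 ± 0.77 and Timp2 at -1.14 ± 0.51. Without the 5 libraries that stand apart, 2 of which are dHep vehicle livers, the Mmp7 difference was -0.57 and that of Mmp14 was -0.12. Timp2 was at 59.9, 13.5 and 18.8 CPM in WT with vehicle, the first being mouse 1 with the muscle markers. In dHep with vehicle it was at 20.2, 10.3 and 11.2 CPM. Its difference without mouse 1 or the libraries that stand apart is not given here. Between dHSC and WT 0 members were at an unadjusted p under 0.05, beside 220 of all 14835 genes.

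Mmp14 was high in the 5 libraries that stand apart, in every group that held one. In dHep it was at 70.3, 478 and 298 CPM with vehicle and at 142, 91.7 and 283 CPM with TCDD. In dHSC it was at 69.4, 60.1 and 180 CPM with vehicle and at 86.8, 90.0 and 568 CPM with TCDD. The 5 libraries that stand apart held between 180 and 568 CPM, and the other 13 between 56.1 and 218 CPM, the highest of these being WT TCDD mouse 8 with 1.76% of counts outside coding genes. The difference with TCDD was -0.71 ± 0.75 in dHep and 1.26 ± 0.75 in dHSC, neither called. Without the 5 libraries it was 0.74 in dHep, and without dHSC TCDD mouse 18 it was -0.22 in dHSC.

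Timp2 lay the other way. It was at 10.3, 11.2, 20.4, 12.6 and 11.7 CPM in those 5 libraries, in the order of mice 9, 15, 16, 17 and 18, and between 13.5 and 59.9 CPM in the other 13. Its group values with vehicle and TCDD were 13.9 ± 5.48 and 24.9 ± 4.49 CPM in dHep, and 18.9 ± 5.50 and 23.2 ± 9.93 CPM in dHSC (SD, n = 3), with differences of 0.83 ± 0.50 and 0.30 ± 0.50, neither called. Over the 18 livers Spearman's rho between Mmp14 and Timp2 was -0.52, the lowest of all pairs of members, as a description of libraries that share groups and composition. What sets the 5 libraries apart was not tested.

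**Figure D3:**
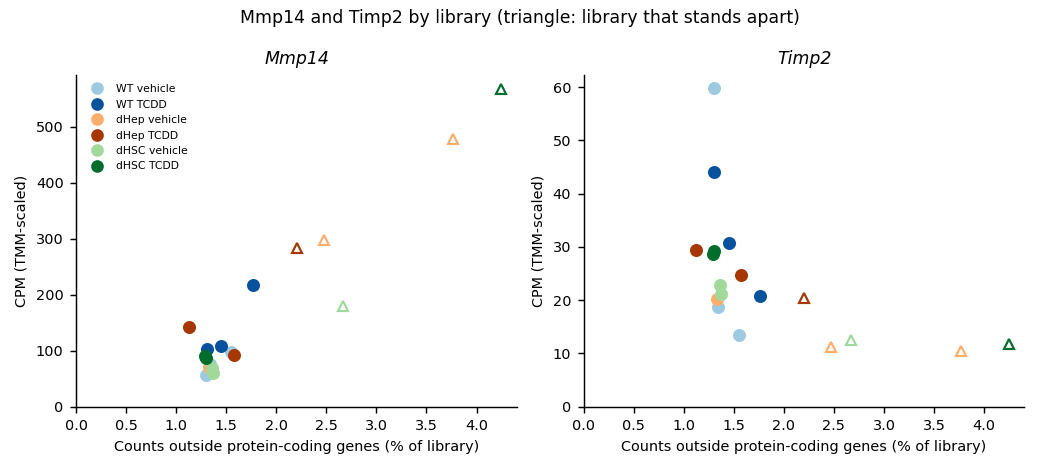
CPM of Mmp14 and Timp2 (vertical axes, from 0) against the percent of a library's counts outside protein-coding genes, 1 point per liver, coloured by group; triangles are the 5 libraries that stand apart. The triangles hold the 4 highest Mmp14 values, and 4 of the 5 triangles lie under 13 CPM for Timp2.

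Per kilobase of exon, the order of the members changed with TCDD in WT. With vehicle, mean levels in CPM per kilobase were 12.8 ± 3.47 for Mmp14, 7.88 ± 6.53 for Timp2 and 1.78 ± 1.76 for Mmp2 (SD, n = 3), and between 0.0468 and 0.237 for the other 5. With TCDD they were 23.9 ± 10.9 for Mmp14, 16.8 ± 7.77 for Mmp7, 8.27 ± 1.51 for Mmp13 and 8.20 ± 3.00 for Timp2, followed by 2.18 ± 1.003 for Mmp2, 2.05 ± 1.03 for Mmp12, 1.90 ± 0.936 for Mmp9 and 1.80 ± 0.837 for Mmp8. Mmp14 and Mmp7, Mmp13 and Timp2, and the last 4 in this order lay within their spread of each other. Mmp7 was divided by all its exon bases, of which 49.5% lie under the span of AV064505. Its level per kilobase, and so its place in the order, may be too low in every group. In dHep with TCDD the same scale gave 28.9 ± 16.7 for Mmp14, 6.38 ± 1.15 for Timp2, 3.34 ± 0.889 for Mmp13, 2.08 ± 1.76 for Mmp7, and at most 0.891 for the other 4. In dHSC with TCDD it gave 41.6 ± 46.4 for Mmp14, 5.96 ± 2.55 for Timp2, 5.04 ± 0.451 for Mmp13 and 2.17 ± 2.13 for Mmp7.

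The chromosome 9 cluster spans 7272514 to 7699585 and holds 10 metalloproteinase genes over 427 kb. Of these, 6 were tested, and 4 rose in WT, Mmp13, Mmp12, Mmp8 and Mmp7, which stand at both ends of the cluster and between. The other 2 tested were Mmp3, stromelysin 1, at 1.23 ± 1.08 (edgeR adjusted p = 0.713), and Mmp27, at 1.70 ± 0.86 (0.349). Mmp1b and Mmp10 had 1 and 8 counts over all libraries, and Mmp1a and Mmp20 had 0. In dHSC 3 of the 6 rose and in dHep 1. Over all genes tested, 5.38% were called in WT, 2.55% in dHSC and 0.0674% in dHep. Genes near 0 with vehicle pass the filter only through a group where they are high, so these counts are no test of the cluster.

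**Figure D4:**
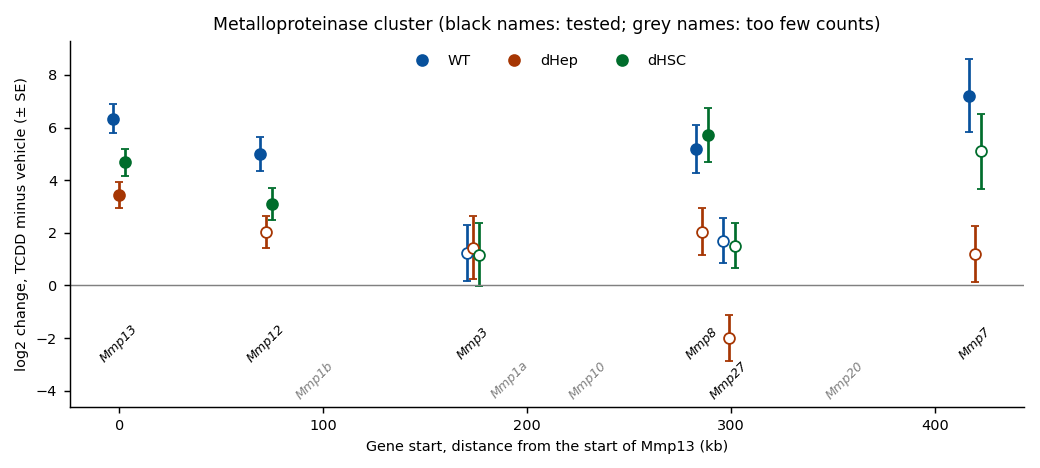
Log2 change with TCDD (vertical axis, ± SE) of the tested genes of the metalloproteinase cluster against the distance of each gene's start from that of Mmp13 in kb, for WT, dHep and dHSC; filled points are called at an adjusted p under 0.05 and grey names are genes with too few counts. Filled points stand at 4 genes, with the open points of Mmp3 and Mmp27 between them.

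Markers of some of the cell types known to make these proteases moved with TCDD in WT as well. Of 11 neutrophil markers 8 were tested and 6 rose in WT, and their summed level was 3.03 to 6.03 CPM with vehicle and 79.3 to 105 CPM with TCDD. In dHep the sum was 6.89 to 26.4 CPM with vehicle and 15.3 to 37.2 CPM with TCDD, with 0 markers called. In dHSC it was 4.26 to 12.0 CPM with vehicle, and 19.0, 13.4 and 164 CPM with TCDD, the last being mouse 18, which also had the highest Mmp8 of the group. In dHSC 3 of the 8 tested rose, S100a8, S100a9 and Cxcr2. With TCDD these 3 were at 21.9 ± 31.5, 20.1 ± 26.7 and 1.65 ± 1.68 CPM (SD, n = 3). Their edgeR adjusted p were 0.0306, 0.0297 and 0.0484, and fits of these markers without mouse 18 are not given here. Without that mouse, Mmp8 in dHSC changed by 5.15 (edgeR adjusted p = 0.0161). At least 8 of the 11 markers had counts in each group. The part of neutrophil number in Mmp8 and Mmp9 was not tested.

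Of 10 markers of monocytes and scar macrophages, 4 rose in WT and 1 fell. The markers that rose were Gpnmb, Trem2, Itgax and Lgals3, and the marker that fell was Atp6v0d2. The sum went from 69.0 to 93.6 CPM with vehicle to 219 to 328 CPM with TCDD in WT, from 71.8 to 121 CPM to 145 to 228 CPM in dHep, and from 79.0 to 87.6 CPM to 171 to 259 CPM in dHSC. All 10 markers had counts in each group. In dHep 0 of the 10 were called and in dHSC 4 rose and 1 fell. The 4 that rose in dHSC had wide spread in part. With TCDD, Lgals3 was at 52.6 ± 46.1 and Cx3cr1 at 14.8 ± 14.8 CPM (SD, n = 3). Gpnmb was at 63.2 ± 14.7 and Itgax at 7.36 ± 3.40 CPM. Fits of these 4 markers without 1 library are not given here. The part of macrophage number in Mmp12 and Mmp13 was not tested.

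Of 9 cholangiocyte markers, 3 rose in WT, Epcam, Prom1 and Spint1, and the sum was 36.6 to 46.0 CPM with vehicle and 114 to 128 CPM with TCDD. In dHep it was 40.6, 170 and 65.3 CPM with vehicle and 68.1 to 100 CPM with TCDD, and vehicle mouse 9, at 170 CPM, also had the highest Mmp7 of the dHep vehicle livers. In dHSC it was 36.0 to 56.6 CPM with vehicle and 98.5 to 125 CPM with TCDD, with 1 of 9 called. The part of bile duct cell number in Mmp7 was not tested. Markers of stellate cells and myofibroblasts summed to 268 to 492 CPM with vehicle and 273 to 465 CPM with TCDD in WT, with 1 of 11 tested higher (Lox). Lrat was at 0 in every library. Since 100% of its exon bases lie under the span of Rbm46os, that 0 is no measure of its expression, as for Timp1.

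**Figure D5:**
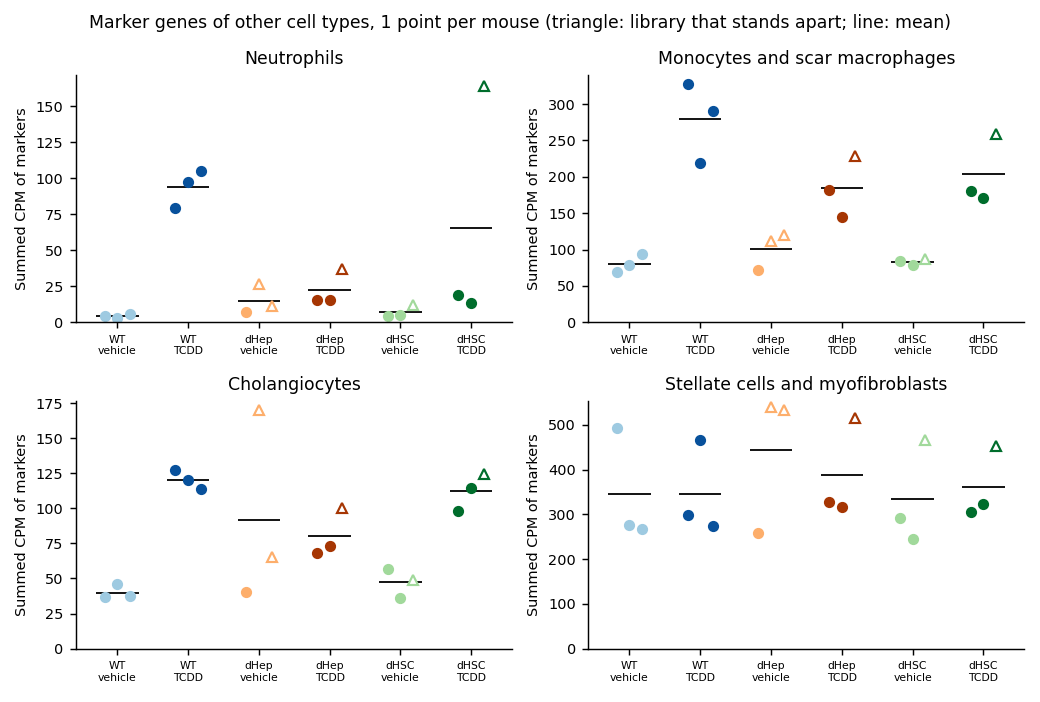
Summed CPM (vertical axes, from 0) of the marker lists of neutrophils, monocytes and scar macrophages, cholangiocytes, and stellate cells and myofibroblasts, 1 point per liver by group; lines are means of 3 and triangles are the 5 libraries that stand apart. The first 3 lists lie higher with TCDD than with vehicle in WT with no overlap, and the stellate list overlaps in every genotype.

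Of the other marker lists in WT with TCDD, 3 of 4 tested B cell markers and 2 of 8 Kupffer cell markers rose, 1 of 7 endothelial markers rose and 1 fell, and 0 of 8 hepatocyte and 0 of 7 T and NK cell markers were called. Both tested skeletal muscle markers fell, on the level of vehicle mouse 1, and 1 of 4 markers of pancreas, fat and mesothelium fell (Cela1).

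The rest of the protease system moved in part. Of 15 other metalloproteinases 8 were tested, and 0 were called in WT, in dHep or in dHSC. Of 8 other inhibitors, 6 were tested and 1 rose in WT, A2m, a general protease trap, at 50 counts with TCDD against 2 with vehicle (ratio 20.8, interval 5.45 to 176). Its edgeR adjusted p was 0.0305, and the call was lost without any 1 of 4 WT libraries, vehicle mouse 7 or 13 or TCDD mouse 2 or 14 (adjusted p up to 0.145).

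In the plasminogen system, whose plasmin activates several proMMPs, Plaur and Serpine2 were called in WT. Plaur, the urokinase receptor, rose in WT by 2.17 ± 0.47 (edgeR adjusted p = 0.0109; lost without vehicle mouse 7 or 13, up to 0.0597), and Serpine2, the inhibitor nexin-1, fell by 1.44 on the log2 scale (edgeR adjusted p = 0.0187; lost without vehicle mouse 7 or TCDD mouse 8 or 14, up to 0.104).

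Of 21 ADAM and ADAMTS proteases, 5 rose in WT, 1 in dHep and 3 in dHSC, and 0 fell. Adamdec1, decysin, a secreted ADAM-like protease, was called in all 3 genotypes, with a log2 change of 3.98 ± 0.42 in WT, 2.24 ± 0.39 in dHep and 2.51 ± 0.40 in dHSC. The dHep call (edgeR adjusted p = 0.0471) was lost without mouse 3, 4, 10, 15 or 16 (adjusted p up to 0.222). The others called in WT were Adamts17 at 3.58 ± 0.67, Adam8 at 3.39 ± 0.62, Adamts15 at 2.23 ± 0.47 and Adamts5, an aggrecanase, at 1.96 ± 0.48. Without vehicle mouse 7 or 13 or TCDD mouse 2, the WT calls of Adamts15 and Adamts5 were lost (adjusted p up to 0.0603 and 0.1098), and that of Adamts5 also without TCDD mouse 14. In dHSC, Adamts17 rose by 3.72 ± 0.66 and Adamts15 by 2.22 ± 0.48, the latter lost without any 1 of 4 libraries, mice 5, 11, 12 and 17 (adjusted p up to 0.114). Of 17 cathepsins and leukocyte serine proteases 14 were tested, and 0 were called in WT, dHep or dHSC by edgeR.

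Of 23 matrix substrates, 5 rose in WT and 0 fell. They were Tnc, tenascin C, by 4.35 ± 0.53, Col1a1 by 2.46 ± 0.54, Spp1, osteopontin, by 2.09 ± 0.39, Col3a1 by 1.59 ± 0.42 and Col4a2 by 1.37 ± 0.31. Tnc has 72.6% of its exon bases under the span of 8030451A03Rik, and its counts may miss reads there. In dHSC Tnc rose by 3.82 ± 0.52 and Eln, elastin and a substrate of MMP12, by 1.95 ± 0.49, the latter lost without any 1 of the 6 dHSC libraries (adjusted p up to 0.201). In WT, the calls of Col3a1 and Col4a2 were lost without vehicle mouse 7 or 13 or TCDD mouse 2 or 14 (edgeR adjusted p up to 0.170 and 0.0895). That of Col1a1 was lost without vehicle mouse 7 or 13 or TCDD mouse 14 (up to 0.0667). WT vehicle mouse 1, the library with muscle markers, held 27.1 CPM of Col1a1 against 5.49 and 6.54 in vehicle mice 7 and 13. Col3a1 was at 75.0 against 35.0 and 34.5 CPM in the same mice. Both calls held without mouse 1. Over the fits without 1 library the change was 2.09 to 3.57 for Col1a1 and 1.40 to 2.06 for Col3a1. In dHep 0 of the 23 were called. The median log2 change of the list was 1.05 in WT, 0.65 in dHep and 0.76 in dHSC, against 4.002, 1.11 and 2.18 for the 8 measured members.

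Across the 18 livers the genes whose log2 CPM ranked most like Mmp13 were Cyp1b1, an AHR target (Spearman's rho 0.96), Adamdec1 (0.96) and Tifab (0.96). For Mmp7 they were Ier3 (0.97), Apobec3 (0.96) and Gipc2 (0.95), and for Mmp12 Acer2 (0.95), Cxcl14 (0.95) and C5ar2 (0.94). For Mmp8 they were H2-DMb2 (0.93), Mefv (0.93) and Gal3st1 (0.92), and for Mmp9 Gng2, Nckap1l and Clec4a2 (0.92, 0.92 and 0.91). Between members the highest rho was 0.91, between Mmp13 and Mmp8. These are descriptions over livers that share the same 6 groups, depth and composition.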

How the data were processed

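The deposited values are raw counts, 1 file per library with 55536 Ensembl genes. The submitters' processing notes name HTSeq 0.11.3, HISAT2 2.1.0, FastQC 0.11.9 and DESeq2 1.22.2, and GRCm38. Counting settings are not given in the sources used here. Symbols, spans and exon lengths came from the GENCODE annotation of GRCm38.

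Counts were fitted with edgeR 4.0.16 in R 4.3.3, with filterByExpr defaults, TMM scaling and 1 mean per group over all 18 libraries. Groups were compared by the quasi-likelihood test in 9 comparisons, with Benjamini-Hochberg adjustment over the 14835 genes tested, and called at an adjusted p under 0.05. Log2 differences have standard errors from the fit. CPM are TMM-scaled. Each library is 1 mouse, named by the mouse number in its label. Depth was 12706490 to 27240877 counts per library. Scripts were tested on simulated data.

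The members and the gene and marker lists were chosen with earlier results of these data known. Named genes are all members, every gene of the pathway lists called in a TCDD comparison or response difference, and for each member called at least once the 3 genes with the highest Spearman's rho. Results on 1 listed gene are not reported here. Other genes are named only as cluster neighbours, label checks or markers, after their values were seen. Alternatives were RLE scaling, other filters, only the compared groups, DESeq2 1.42.0, each library left out, and the 5 libraries with over 2% of counts outside coding genes left out or modelled as a covariate.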

Additional observations from a re-analysis of the deposited data

Results flagged for a closer look

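Among the lists described, 3 genes had a TCDD response that differed between genotypes by an interaction test, none of them a member. Serpine2, which encodes the serine protease inhibitor nexin-1, responded differently in dHep and WT, by 2.38 ± 0.48 on the log2 scale (edgeR quasi-likelihood test, adjusted p = 0.0256). In WT it was at 13.5, 13.6 and 11.4 CPM with vehicle and at 6.96, 3.53 and 3.68 CPM with TCDD. In dHep it was at 6.78, 5.12 and 3.40 CPM with vehicle and at 8.78, 9.60 and 11.2 CPM with TCDD, so every TCDD liver lay below the vehicle livers in WT and above them in dHep. The call was lost in 9 of the 12 fits without 1 library (adjusted p up to 0.0905), namely without WT mice 7, 8, 13 or 14 or dHep mice 4, 9, 10, 15 or 16, and the difference was 1.87 (adjusted p = 0.328) with the 5 libraries that stand apart left out.

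Atp6v0d2, a subunit of the vacuolar proton pump and 1 of the macrophage markers, also responded differently in dHep and WT, by 3.26 ± 0.65 (edgeR adjusted p = 0.0256). In WT it was at 8.20, 27.6 and 22.04 CPM with vehicle and at 2.79, 1.59 and 2.60 CPM with TCDD. In dHep it was at 10.2, 24.3 and 22.6 CPM with vehicle and at 20.6, 30.7 and 14.97 CPM with TCDD, so the groups separated in WT and overlapped in dHep. The call was lost in 8 of the 12 fits without 1 library, those without WT mice 2, 7, 8, 13 or 14 or dHep mice 4, 9 or 10 (adjusted p up to 0.0815), and it was lost with those 5 libraries left out (4.36, adjusted p = 0.0724).

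Spint1, a membrane inhibitor of serine proteases and 1 of the cholangiocyte markers, responded less in dHep than in WT, by a difference of -3.92 ± 0.88 (edgeR adjusted p = 0.0482). In WT it was at 1.38, 0.729 and 0.689 CPM with vehicle and at 33.7, 38.1 and 24.2 CPM with TCDD. In dHep it was at 1.35, 9.87 and 2.11 CPM with vehicle and at 9.001, 9.35 and 11.6 CPM with TCDD, where vehicle mouse 9, a library that stands apart, lay among the TCDD livers. The call was lost in 10 of the 12 fits without 1 library, all but those without dHep vehicle mouse 3 or 15 (adjusted p up to 0.153, at -2.55 without mouse 9), with those 5 libraries left out (-2.34, adjusted p = 0.128), with RLE scaling (0.0553) and with only the compared groups (0.0676).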

How the results depend on the processing

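Over 77 gene differences and 1074 alternative values, 932 kept their direction and side of the threshold, 108 lost a call, 20 gained one and 14 reversed. The 5 calls in WT with TCDD held under every alternative run. The share of all genes called under each alternative is not given here. The numbers of members below therefore describe how calls moved and are no result about the members. The number of members called moved by over 1.5 times as follows. Fitted with only the compared groups it was 0 in dHep with TCDD, 1 in dHSC with TCDD and 2 for dHep against WT with TCDD. With DESeq2 it was 3 for the response in dHep against WT and 4 for dHep against WT with TCDD. Without the libraries that stand apart it was 0 in dHep with TCDD and 3 for dHep against WT with TCDD. With the percent of counts outside coding genes as a covariate it was 2 for the response in dHep against WT, 4 for dHep against WT with TCDD and 1 for dHSC against WT with TCDD. Leaving out 1 library at a time gave 0 to 1 in dHep with TCDD, 0 to 1 for the response in dHep against WT and 0 to 1 for dHep against WT with TCDD. Smaller moves were to 4 in dHSC with TCDD with no filter on low counts, with DESeq2 and with the covariate, and, without 1 library, 5 to 6 in WT and 2 to 3 in dHSC with TCDD. Reversed differences were Mmp14 with TCDD in dHep, at 0.74 without the libraries that stand apart and 0.49 with the covariate, and in vehicle dHep against WT, without those libraries, Mmp7 at -0.57 and Mmp14 at -0.12. Without 1 library, ranges that crossed 0 were -0.30 to 0.98 for Timp2 in WT, -0.091 to 1.503 for Mmp2 in WT, -0.095 to 0.206 for Mmp2 in dHep, -0.22 to 1.91 for Mmp14 in dHSC and -0.16 to 3.37 for Mmp8 in the response of dHSC against WT. The cause of these shifts was not tested. No paired analysis was possible because the labels give each mouse its own number. Vehicle counts of 2 to 6 over 3 libraries limit the precision of Mmp7 in WT and dHSC and of Mmp8 in WT and dHSC.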
